A study of Mus musculus with 6 samples.

Results

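Cytosolic ribosomal protein genes were examined in lymphocytes isolated from mouse tumors. Members were taken by name and biotype from the deposited table: protein-coding rows named Rpl or Rps with a number, Rplp0 to Rplp2 and Rpsa, without the Rps6k kinases and Rps19bp1. They are 91 of 57180 genes, 55 of the large and 36 of the small subunit, and include paralogs and retrocopies that the table lists as protein-coding. The SLC43A2 sgRNA group has 3 libraries, from mice bearing Hepa1-6 tumors (a mouse hepatoma line) that received by tail vein injection the delivery system named TREND, carrying plasmids for CasRx and a guide against SLC43A2. CasRx is a CRISPR nuclease that cuts RNA, and SLC43A2 transports large neutral amino acids such as methionine. The Mock sgRNA group has 3 libraries from mice with the same tumors, injection, TREND system and CasRx, but with a mock guide. The labels give neither age nor strain of the mice. The labels number the libraries within a group and do not say whether each came from its own animal, so p-values measure the spread between these libraries, which may be technical. The series title calls the system tumor-specific, while the RNA is from lymphocytes.

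A ribosome is built from ribosomal RNA and a large set of proteins, which are made in the cytoplasm, carried to the nucleolus and assembled there into a large and a small subunit. In mammals most of these mRNAs start with a C and a run of pyrimidines, the terminal oligopyrimidine or TOP motif, through which mTORC1 and LARP1 control their translation together. Activated T cells make many new ribosomes, and some ribosomal proteins have a second life outside the ribosome: Rpl5 and Rpl11 bind the p53 ligase Mdm2, and loss of Rpl22 impairs T cell development in mice.

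The libraries differed in more than the guide. Transcripts of T cell markers were abundant in both groups (summed level of 12 markers 8762 to 9304 TPM in SLC43A2 sgRNA and 9963 to 11443 TPM in Mock sgRNA; 2 higher and 3 lower past the threshold used below). TPM is an amount of RNA corrected for transcript length, as a part of its library, on a scale with the same sum for each library. Markers of other cells were lower in SLC43A2 sgRNA. The 8 plasma cell markers summed to 820 to 924 TPM in SLC43A2 sgRNA and 22860 to 24333 TPM in Mock sgRNA (6 of 8 lower), and the B cell markers to 24.6 to 25.3 TPM in SLC43A2 sgRNA and 326 to 417 TPM in Mock sgRNA (9 of 9 tested lower). Macrophage markers (9 of 10 lower), neutrophil markers (8 of 8 lower), NK cell markers (7 of 7 lower) and red blood cell markers (6 of 7 tested lower) summed to at most 126 TPM for any of these lists in SLC43A2 sgRNA and to at least 237 TPM in Mock sgRNA. The 9 hepatocyte and hepatoma markers summed to 5.84 to 8.31 TPM in SLC43A2 sgRNA and 21.3 to 37.6 TPM in Mock sgRNA, a difference mostly due to Trf. Of these 9, 3 were tested and 1 was lower, Trf (mean 1.86 TPM in SLC43A2 sgRNA and 21.8 TPM in Mock sgRNA). Afp (3.69 and 5.5 TPM) and Apoa2 (1.57 and 2.04 TPM) overlapped between the groups and did not pass. Alb, Apob, Ttr and Serpina1a were listed at 0 in every library. The Y-linked Eif2s3y averaged 1.03 TPM in SLC43A2 sgRNA and 51.4 TPM in Mock sgRNA, and Xist 11.0 TPM in SLC43A2 sgRNA and 4.31 TPM in Mock sgRNA, so the guide and the sex of the cells cannot be told apart. The targeted Slc43a2 stood at 3.5, 2.4 and 4.15 TPM in SLC43A2 sgRNA and 6.68, 4.18 and 4.79 TPM in Mock sgRNA. Its log2 difference was -0.52 (SE 0.23) and did not pass (limma, adjusted p = 0.113). In bulk RNA, fewer cells of a type and less RNA per cell cannot be told apart, and the part that cell makeup has in the ribosomal protein values below was not tested.

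The summed level of the ribosomal protein genes overlapped between the groups, while single members moved in both directions. The ribosomal protein share of library TPM, summed over the 91 members, was 14.1, 14.8 and 14.6% of the TPM in SLC43A2 sgRNA libraries and 15.5, 18.0 and 13.7% in Mock sgRNA libraries (14.5 ± 0.395% against 15.7 ± 2.16%, SD, n = 3 each; exact two-sided permutation p = 0.5, where 3 against 3 can give 0.1 at the lowest). The ranges overlapped, and Mock sgRNA replicates 2 and 3 held the highest and the lowest of the 6 shares. Without Mock sgRNA replicate 2 the difference was -0.0504 percentage points, against -1.19 with it. Without Mock sgRNA replicate 3 it was -2.20, and without replicate 1 -1.31. The share depends on what it is taken of. Of the TPM of protein-coding genes other than antigen receptor, hemoglobin and mitochondrial ones, the members held 16.7, 17.7 and 17.4% in SLC43A2 sgRNA and 21.1, 24.6 and 18.1% in Mock sgRNA, and these ranges did not overlap (exact permutation p = 0.1). Protein-coding genes as a whole took 86.6 ± 0.338% of the TPM in SLC43A2 sgRNA and 77.9 ± 1.13% in Mock sgRNA, and immunoglobulin genes 0.212 ± 0.0117% in SLC43A2 sgRNA and 4.54 ± 0.298% in Mock sgRNA.

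**Figure D1:**
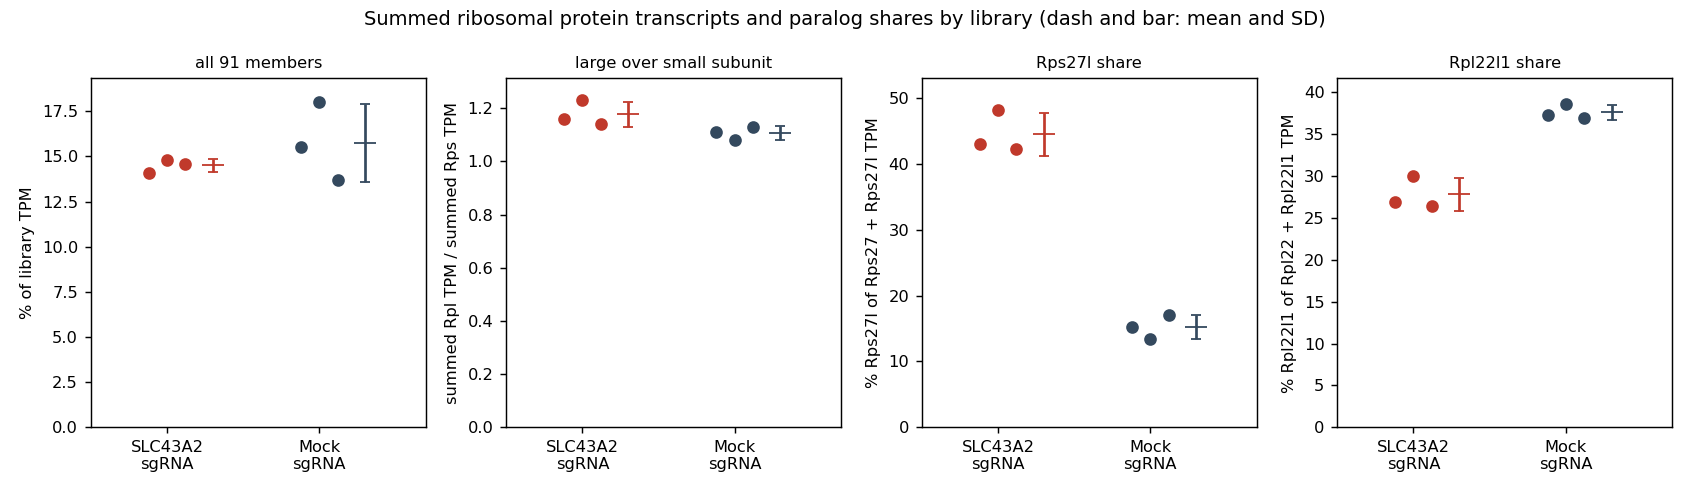
Summed ribosomal protein transcripts and paralog shares in each library; the y axes show percent of library TPM, the ratio of summed large to summed small subunit TPM, and percent of a paralog pair's TPM, and points are libraries with the group mean and SD beside them. The ribosomal protein share overlaps between the groups, while the Rps27l share is 42.2 to 48.2% in SLC43A2 sgRNA and 13.4 to 17.1% in Mock sgRNA.

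Of the 91 members, 89 had a mean of at least 1 TPM and were tested with limma on log2(TPM + 1), with p adjusted over 13759 genes and a threshold of 0.05. Past it, 4 members were higher in SLC43A2 sgRNA (Rpl7l1, Rps27l, Rpl4 and Rps2) and 18 were lower, 24.7% of those tested, whereas 45.1% of all genes tested passed. Of all genes, 22.8% were higher and 22.2% lower. Among genes of at least 1000 TPM, 47.9% of 169 passed, and 14 of the 58 members at that level did. At 100 TPM or more the shares were 60.9% of 1524 genes and 21 of 82 members. The groups did not overlap for 34 of 89 members and for 57.0% of all genes tested. The members' median log2 difference was -0.06, against 0.03 over all genes tested and 0.16 over the protein-coding ones. The sign of the members' median turned with the scaling. It was 0.12 with libraries scaled to T cell receptor transcripts, against 0.17 over all genes. With length and GC trends removed it was 0.07, against 0.11 over all genes. When rescaled to protein-coding genes it was -0.25, against -0.02 over all genes. The members' median lay below that of all genes in the main fit and in each of these settings. Without Mock sgRNA replicate 2 it lay above, at 0.01 against -0.01. No direction is given for the family. Scaling to the ribosomal protein genes themselves removes the members' mean difference by design. The median of 0.04 with that scaling therefore cannot bear on direction. The split of the calls turned as well: 18.2% of the members' calls were higher in the main fit, where 50.6% of the calls of all genes were. The members' share was 70.6% with T cell receptor scaling (62.2% over all genes) and 55.6% with median-of-ratios scaling (55.2% over all genes). With length and GC trends removed it was 53.3% (57.4% over all genes). The count of 22 also rests on single libraries. It was 9 without Mock sgRNA replicate 1, without SLC43A2 sgRNA replicate 1 or without SLC43A2 sgRNA replicate 3, and 35 without Mock sgRNA replicate 3. Leaving out Mock sgRNA replicate 2 gave 6 higher and 9 lower. Of the 22 calls, those of Rps27, Rps27rt, Rps27l, Rpl7l1 and Rpl4 held in each of 19 other settings, and 0 of the 22 changed sign in any. The calls of 13 lower members (Rps15a, Rps23, Rps21, Rps7, Rps16, Rps13, Rps10, Rpsa, Rpl22l1, Rpl9-ps6, Rpl13a, Rpl21 and Rplp1) ended with T cell receptor scaling (adjusted p 0.0913 to 0.306), with median-of-ratios scaling (0.0562 to 0.17) and with no filter (0.0513 to 0.139). With length and GC trends removed 12 of the 22 calls ended, those of Rps2, Rplp2 and 10 of these 13, all but Rpsa, Rpl21 and Rps13.

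Mock sgRNA libraries spread more than SLC43A2 sgRNA libraries did. The median coefficient of variation of members of at least 100 TPM was 5.28% in SLC43A2 sgRNA and 15.1% in Mock sgRNA, against 9.32% in SLC43A2 sgRNA and 12.9% in Mock sgRNA for genes of that level in general. Mock sgRNA replicate 2 was the highest Mock sgRNA library for 73 members and the highest of the 6 libraries for 56. Mock sgRNA replicate 3 was the lowest of its group for 70 members and the lowest of the 6 for 36.

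**Figure D2:**
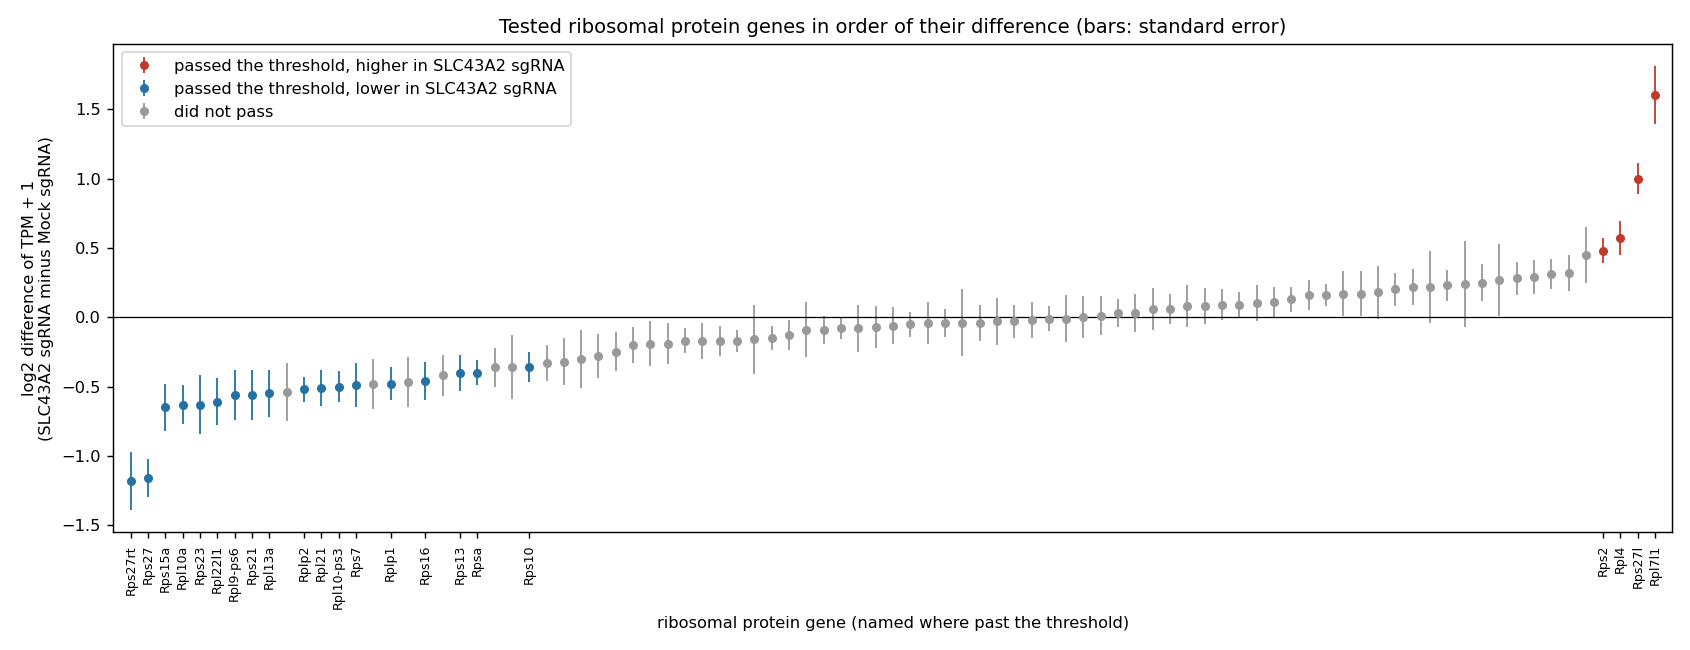
The tested ribosomal protein genes in order of their log2 difference (y axis, SLC43A2 sgRNA minus Mock sgRNA, of TPM + 1; bars are standard errors), with the 4 higher and 18 lower members past the threshold in color and named. Rpl7l1 and Rps27l lie at 1.60 and 1.00, Rps27rt and Rps27 at -1.18 and -1.16, and the other members lie between them.

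In the small subunit 12 of 36 tested members passed, 2 higher and 10 lower, where 45.1% of all genes tested passed. The median log2 difference of the 36 was -0.15. The widest differences were in a single protein and its copies. Rps27 encodes a small zinc-finger protein of the small subunit, Rps27l encodes a close paralog that is a known p53 target in human cells, and Rps27rt is a retrocopy. The coding sequences of Rps27 and Rps27l are shown because these 2 genes moved in opposite directions. They are from GENCODE M21 on GRCm38, for Rps27 at chr3:90212522-90213651 on the minus strand and Rps27l at chr9:66946086-66949516 on the plus strand, with capitals in Rps27l where it differs from Rps27.
Rps27: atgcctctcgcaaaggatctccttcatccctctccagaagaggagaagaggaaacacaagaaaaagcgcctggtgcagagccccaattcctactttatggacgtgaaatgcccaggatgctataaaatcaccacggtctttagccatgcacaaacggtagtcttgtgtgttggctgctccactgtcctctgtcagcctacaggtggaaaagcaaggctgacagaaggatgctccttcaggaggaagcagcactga
Rps27l: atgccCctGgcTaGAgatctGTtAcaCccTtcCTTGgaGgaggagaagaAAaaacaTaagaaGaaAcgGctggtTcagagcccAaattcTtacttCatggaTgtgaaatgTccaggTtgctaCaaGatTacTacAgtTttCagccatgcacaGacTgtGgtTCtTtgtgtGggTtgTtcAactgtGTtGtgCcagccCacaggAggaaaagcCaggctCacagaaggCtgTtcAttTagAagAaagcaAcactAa
Both are 255 bases long and differ at 61 of them (76.08% identical). Set side by side, they have no 50-base stretch in common. The coding sequence of Rps27rt (chr9:114982366-114982739, minus strand) differs from that of Rps27 at 0 bases. Every 50-base window of the Rps27 and Rps27rt coding sequences also occurs in other genes (9 for each), and 49.03% of the Rps27l windows do.

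Rps27 had 3539.8, 3428 and 3814 TPM in SLC43A2 sgRNA replicates 1, 2 and 3, against 7449.5, 9898 and 6961 TPM in Mock sgRNA replicates 1, 2 and 3. Every SLC43A2 sgRNA value lay below every Mock sgRNA value. Rps27 averaged 3594 ± 199 TPM in SLC43A2 sgRNA and 8103 ± 1574 TPM in Mock sgRNA (SD of 3 libraries), 2.25-fold lower in SLC43A2 sgRNA (log2 difference -1.16, SE 0.14, limma adjusted p = 0.00118). Rps27rt, whose reads cannot be told from those of Rps27 within the coding sequence, had 350.2, 298 and 311 TPM in SLC43A2 sgRNA and 590.3, 1009 and 632 TPM in Mock sgRNA, again without overlap (log2 difference -1.18, SE 0.21, limma adjusted p = 0.0049). Rps27l went the other way. It had 2669, 3188 and 2783 TPM in SLC43A2 sgRNA and 1336, 1529 and 1439 TPM in Mock sgRNA, or 2.01-fold higher in SLC43A2 sgRNA (log2 difference 1.00, SE 0.11, limma adjusted p = 0.00065). As a share of the pair, Rps27l made up 43.0, 48.2 and 42.2% of the Rps27 plus Rps27l TPM in SLC43A2 sgRNA and 15.2, 13.4 and 17.1% in Mock sgRNA (44.5 ± 3.26% against 15.2 ± 1.87%, exact permutation p = 0.1, the smallest possible). With Rps27rt counted with Rps27, the shares were 40.7, 46.1 and 40.3% in SLC43A2 sgRNA and 14.2, 12.3 and 15.9% in Mock sgRNA. The summed level of the 3 genes was 6559, 6914 and 6909 TPM in SLC43A2 sgRNA and 9376, 12437 and 9031 TPM in Mock sgRNA, again without overlap.

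**Figure D3:**
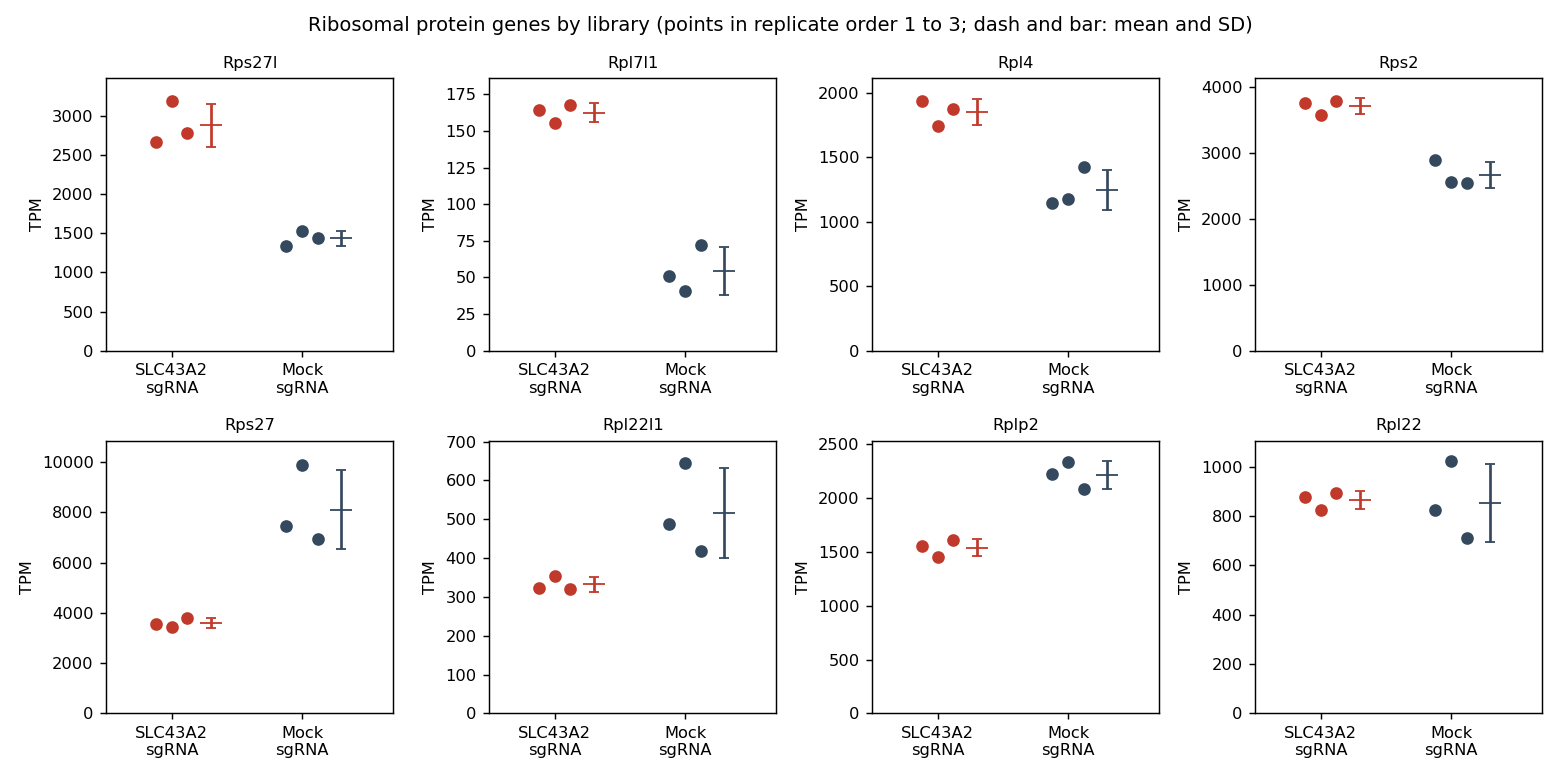
TPM of 8 ribosomal protein genes (y axis) in each library, SLC43A2 sgRNA left and Mock sgRNA right, with the mean and SD as dash and bar. Rps27l, Rpl7l1, Rpl4 and Rps2 are higher and Rps27, Rpl22l1 and Rplp2 lower in all 3 SLC43A2 sgRNA libraries than in any Mock sgRNA library, while Rpl22 overlaps.

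Rps2, a protein at the channel where mRNA enters the small subunit, was the other small-subunit member that rose. It had 3763, 3576 and 3798 TPM in SLC43A2 sgRNA against 2897, 2555.5 and 2549 TPM in Mock sgRNA, without overlap (log2 difference 0.48, SE 0.09, limma adjusted p = 0.00568). Its adjusted p was 0.0502 with no filter, 0.0631 when rescaled to protein-coding genes and 0.0565 with length and GC trends removed. The other proteins of the mRNA entry and exit region, Rps3 (log2 difference 0.09), Rps26 (-0.01) and Rps28 (-0.28), did not pass. Rps25, used by some viral internal ribosome entry sites, had 5269, 4193 and 6192 TPM in SLC43A2 sgRNA and 3688, 4718 and 3069.96 TPM in Mock sgRNA, with overlap and no call (log2 difference 0.45, adjusted p = 0.101).

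Among the small-subunit members that fell after Rps27, Rps15a and Rps23 had the largest differences. Rps15a, an rRNA-binding protein of the subunit body, had 793, 808 and 818 TPM in SLC43A2 sgRNA and 1251, 1624 and 997 TPM in Mock sgRNA (log2 difference -0.65, SE 0.17, limma adjusted p = 0.0219). The groups did not overlap, but the call ended without Mock sgRNA replicate 1 or without any 1 of the SLC43A2 sgRNA replicates (adjusted p 0.0584 to 0.0794). Rps23, a protein of the decoding center, had 528, 575 and 595 TPM in SLC43A2 sgRNA and 922, 1139.9 and 639 TPM in Mock sgRNA (log2 difference -0.63, SE 0.21, limma adjusted p = 0.0435). Its call was lost without any 1 library other than Mock sgRNA replicate 3 (adjusted p 0.0956 to 0.143). Rps21 had 692, 633 and 689 TPM in SLC43A2 sgRNA and 982, 1271 and 775 TPM in Mock sgRNA (log2 difference -0.56, SE 0.18, limma adjusted p = 0.0405), with the call lost for the same 5 libraries (0.0825 to 0.118). With length and GC trends removed the difference of Rps21 was -0.25 (adjusted p = 0.314). Mock sgRNA replicate 2 was the highest and Mock sgRNA replicate 3 the lowest Mock sgRNA library for all 3 of these genes. The remaining lower small-subunit members were Rps7, Rps16, Rps13, Rps10 and Rpsa, with log2 differences of -0.49 to -0.36 and adjusted p of 0.0123 to 0.048. Each of these calls ended without Mock sgRNA replicate 1 and without SLC43A2 sgRNA replicates 1 or 3 (adjusted p 0.0543 to 0.155), those of Rps7, Rps16, Rps13 and Rps10 also without Mock sgRNA replicate 2 (0.0869 to 0.138), and those of Rps7, Rps13 and Rps10 also without SLC43A2 sgRNA replicate 2 (0.0774 to 0.0936). With length and GC trends removed the difference of Rps7 was -0.10 (adjusted p = 0.638).

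In the large subunit 10 of 53 tested members passed, 2 higher and 8 lower, where 45.1% of all genes tested passed. The median log2 difference of the 53 was -0.04. The largest positive difference of the whole family belonged to Rpl7l1, the counterpart of yeast Rlp7, an assembly factor that resembles Rpl7 but leaves the particle before it matures. Rpl7l1 (chr17:46773907-46782672, minus strand) had 165, 155.6 and 168 TPM in SLC43A2 sgRNA and 50.8, 40.5 and 72.3 TPM in Mock sgRNA, a 2.98-fold higher mean in SLC43A2 sgRNA (163 ± 6.25 against 54.5 ± 16.2 TPM; log2 difference 1.60, SE 0.21, limma adjusted p = 0.0015). Its parent Rpl7, a component of the mature ribosome, had 1404, 1334 and 1385 TPM in SLC43A2 sgRNA and 1353, 1446 and 1079.6 TPM in Mock sgRNA, with overlap (log2 difference 0.10, adjusted p = 0.546). Rpl4, which lines the tunnel through which the new chain leaves, had 1937, 1742 and 1870.3 TPM in SLC43A2 sgRNA and 1141, 1173 and 1427 TPM in Mock sgRNA, without overlap (log2 difference 0.57, SE 0.12, limma adjusted p = 0.00744). Of the coding windows, 22.25% of those of Rpl7l1 and 20.23% of those of Rpl4 occur in other genes.

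Rpl10, Rpl3 and Rpl15 lay next in order in the large subunit and did not pass. Rpl10, a late-joining protein near the peptidyl transferase center, had 1764, 1614 and 1859.8 TPM in SLC43A2 sgRNA and 1502, 1537 and 1188 TPM in Mock sgRNA (log2 difference 0.32, adjusted p = 0.0817). Rpl3, which reaches toward the same center, had 1771, 1481 and 1679 TPM in SLC43A2 sgRNA and 1308, 1225 and 1429 TPM in Mock sgRNA (log2 difference 0.31, adjusted p = 0.0525). Rpl15 had 1818, 2000.5 and 1880.4 TPM in SLC43A2 sgRNA and 1559.7, 1778 and 1357 TPM in Mock sgRNA (log2 difference 0.29, adjusted p = 0.0888). In each of these genes the groups did not overlap. Rpl30, with an adjusted p of 0.0522, and Rpl3 were the members nearest to the threshold on its outer side.

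The L1 stalk protein Rpl10a, which helps the spent tRNA leave, had 770.1, 902 and 857 TPM in SLC43A2 sgRNA and 1371, 1464 and 1092 TPM in Mock sgRNA, without overlap (log2 difference -0.63, SE 0.14, limma adjusted p = 0.01). Without Mock sgRNA replicate 1 its adjusted p was 0.0517. The P stalk, which recruits the elongation factors, was split. Its dimer-forming proteins Rplp1 and Rplp2 fell. Rplp1 had 2343, 2478 and 2499.7 TPM in SLC43A2 sgRNA and 3474, 3898 and 2919 TPM in Mock sgRNA (log2 difference -0.48, SE 0.12, limma adjusted p = 0.0166), and this call ended without Mock sgRNA replicates 1 or 2 or SLC43A2 sgRNA replicates 1 or 3 (adjusted p 0.0599 to 0.0807). With length and GC trends removed the difference of Rplp1 was -0.26 (adjusted p = 0.195). Rplp2 had 1559, 1451 and 1609.9 TPM in SLC43A2 sgRNA and 2227, 2336 and 2083 TPM in Mock sgRNA (log2 difference -0.52, SE 0.09, limma adjusted p = 0.00453; -0.26 and 0.103 with length and GC trends removed). Neither gene overlapped between the groups. Rplp0, on which those dimers sit, had 2394, 2384 and 2296 TPM in SLC43A2 sgRNA and 2164, 2031 and 2152 TPM in Mock sgRNA (log2 difference 0.16, adjusted p = 0.153). Rpl12, at the base of the stalk, had 114, 146 and 144 TPM in SLC43A2 sgRNA and 152, 148 and 121 TPM in Mock sgRNA (log2 difference -0.07, adjusted p = 0.746). The difference between the 2 pairs of stalk genes was not tested.

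Rpl5 and Rpl11, which travel with 5S rRNA and bind Mdm2 when not assembled, did not pass. Rpl5 was listed at 63.6, 65.0 and 73.3 TPM in SLC43A2 sgRNA and 51.7, 59.6 and 53.9 TPM in Mock sgRNA (log2 difference 0.28, adjusted p = 0.101). Rpl11 had 686, 656 and 752 TPM in SLC43A2 sgRNA and 554, 805 and 647 TPM in Mock sgRNA (log2 difference 0.08, adjusted p = 0.7). Rpl5 did not overlap between the groups and Rpl11 did. Of the 8 genes of proteins around the peptide exit, 0 passed (limma; 1 at an unadjusted p under 0.05, Rpl17). Their log2 differences were between -0.36 for Rpl37 and Rpl17 and 0.17 for Rpl35. The lower large-subunit members not yet given were Rpl13a, Rpl21, Rpl10-ps3 and Rpl9-ps6. Rpl9-ps6, annotated as protein-coding despite a pseudogene name, had 20.2, 27.7 and 22.6 TPM in SLC43A2 sgRNA and 42.1, 32.5 and 30.7 TPM in Mock sgRNA (log2 difference -0.56, SE 0.18, limma adjusted p = 0.0415), and its call ended without Mock sgRNA replicates 1 or 2 or SLC43A2 sgRNA replicates 1 or 3 (adjusted p 0.0759 to 0.133). The same 4 libraries ended the call of Rpl13a (log2 difference -0.55, adjusted p = 0.0345, groups overlapping; 0.127 to 0.139 without them, and -0.34 and 0.185 with length and GC trends removed), and SLC43A2 sgRNA replicates 1 and 3 that of Rpl21 (-0.51, adjusted p = 0.0177; 0.0676 and 0.0797 without them). Rpl10-ps3 (log2 difference -0.50, adjusted p = 0.009) kept its call without any 1 library, and had an adjusted p of 0.0517 with median-of-ratios scaling.

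Rpl22l1, the paralog of Rpl22 that rises when Rpl22 is lost in mice, was lower in SLC43A2 sgRNA. It had 323, 353 and 320.5 TPM in SLC43A2 sgRNA and 487, 645 and 418 TPM in Mock sgRNA, without overlap (log2 difference -0.61, SE 0.17, limma adjusted p = 0.0235). This call ended without Mock sgRNA replicate 1 (adjusted p = 0.0691), without SLC43A2 sgRNA replicates 1 or 3 (0.0799 and 0.0872), and with length and GC trends removed, where the difference was -0.16. Rpl22 itself had 876, 827 and 894 TPM in SLC43A2 sgRNA and 823, 1025 and 713 TPM in Mock sgRNA, with overlap (log2 difference 0.03, adjusted p = 0.859). Rpl22l1 was 26.9, 30.0 and 26.4% of the pair in SLC43A2 sgRNA and 37.2, 38.6 and 36.9% in Mock sgRNA (27.8 ± 1.92% against 37.6 ± 0.91%, exact permutation p = 0.1). The shares did not overlap between the groups. Exons of Rpl22l1 overlap the opposite-strand gene Gm33051 over 8.0% of their bases, and 84.38% of its coding windows occur in other genes. Exon overlap with opposite-strand genes was larger for some other members, including Rpl35 (66.2%), Rps25 (24.8%) and Rpl5 (24.3%). Rpl13a shares 35.4% of its exon bases with genes on the same strand.

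The other paralogs were low or did not pass. Rpl36al, a close relative of Rpl36a, had 1157, 1323 and 1076 TPM in SLC43A2 sgRNA and 962, 1137 and 899 TPM in Mock sgRNA (log2 difference 0.25, adjusted p = 0.159), with overlap. Rpl39l, a testis-enriched relative of Rpl39, had 1.56, 2.39 and 2.03 TPM in SLC43A2 sgRNA and 1.41, 2.24 and 0.94 TPM in Mock sgRNA (log2 difference 0.27, adjusted p = 0.427). Rps4l had 3.52, 3.25 and 2.33 TPM in SLC43A2 sgRNA and 2.89, 1.47 and 3.24 TPM in Mock sgRNA (log2 difference 0.22, adjusted p = 0.523). The striated muscle form Rpl3l reached 0.15 TPM in replicate 1 of each group and was listed at 0 in the others, and Rpl10l, the testis form of Rpl10, was listed at 0 throughout. Without paralogs and retrocopies, 16 of 77 genes passed, 2 higher and 14 lower, where 45.1% of all genes tested passed. The median log2 difference of the 77 was -0.07.

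The large to small subunit ratio, summed large-subunit TPM over summed small-subunit TPM, was 1.16, 1.23 and 1.14 in SLC43A2 sgRNA and 1.11, 1.08 and 1.13 in Mock sgRNA, which do not overlap (exact permutation p = 0.1). Without Rps27, Rps27rt and Rps27l the ratios were 1.29, 1.38 and 1.27 in SLC43A2 sgRNA and 1.27, 1.26 and 1.32 in Mock sgRNA, and they overlapped (difference 0.0279, exact permutation p = 0.6).

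Levels differed widely within the family. Over the 77 genes without paralogs and retrocopies, the median of the mean TPM was 1584, and 56 reached 1000 TPM. Among the most abundant members were Rps27 (5848 TPM over the 6 libraries), Rps29 (4614 TPM) and Rps25 (4522 TPM). Rps29, a zinc-binding protein of the small subunit head, had 3948, 3875 and 4356 TPM in SLC43A2 sgRNA and 5002, 6829 and 3676 TPM in Mock sgRNA (log2 difference -0.30, adjusted p = 0.277). Its values overlapped between the groups. Rpl5 (61.2 TPM), Rpl12 and Rpl27a were the lowest of the 77. Every 50-base coding window of these 3 genes also occurs in other genes, but so it does for 31 members in all, including abundant ones.

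Sequence shared with pseudogenes and retrocopies limits what a value of a single member means, since the table does not say how reads with several matches were counted. Of 90 members with a coding sequence, 75 share at least 50% of their windows with another gene. Of these 18 passed, 1 higher and 17 lower. Of the 15 that share less, 13 were tested and 4 passed, 3 higher (Rps27l, Rpl7l1 and Rpl4) and 1 lower (Rps21). Of all genes tested 45.1% passed, with 22.8% higher and 22.2% lower. Over 88 tested members the shared percentage and the log2 difference had a Spearman correlation of -0.09 and a Pearson correlation of -0.30, given as a description over genes that share libraries. The 323 rows annotated as ribosomal protein pseudogenes took 1.02, 1.01 and 0.961% of the TPM in SLC43A2 sgRNA and 1.01, 1.14 and 1.02% in Mock sgRNA (exact permutation p = 0.3). Small nucleolar RNAs (snoRNAs) also lie within the gene spans of members on the same strand, 51 of them within 29 members. Of these 17 were tested and 0 passed (limma, also 0 at an unadjusted p under 0.05), against 10 of 116 tested snoRNAs of any host.

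Rack1 and Fau encode ribosomal proteins that the name rule leaves out, and neither passed. Rack1, a scaffold on the small subunit head, had 1431, 1913 and 1454 TPM in SLC43A2 sgRNA and 2280.1, 2051 and 1597 TPM in Mock sgRNA (log2 difference -0.30, adjusted p = 0.194). Fau, which encodes a ubiquitin-like fusion to Rps30, had 1109, 1179.8 and 1224 TPM in SLC43A2 sgRNA and 1440.3, 1759 and 1225 TPM in Mock sgRNA (log2 difference -0.32, adjusted p = 0.11).

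Start sites were read to see which members carry a pyrimidine run of the TOP kind. RefSeq start sites on GRCm38.p6 were at hand for 66 members. The search was for a C followed by C or T only, at least 6 bases long in all. It had to begin within 10 bases of an annotated start on the transcribed strand. Some genes have several annotated starts (32851 starts for 27025 genes), and the start with the longest run was taken for each gene. The windows below hold 15 bases on each side of the start, with the run in capitals. They are for some of the members described above, chosen to show higher and lower ones with a run. Rpl4 and Rpl7l1, for which the search found none, are shown too.
Rps27 (chr3:90213634-90213663, minus strand): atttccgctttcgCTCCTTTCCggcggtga
Rps27rt (chr9:114982725-114982754, minus strand): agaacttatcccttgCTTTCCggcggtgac
Rps27l (chr9:66946071-66946100, plus strand): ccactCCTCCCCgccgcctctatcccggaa
Rps15a (chr7:118116133-118116162, minus strand): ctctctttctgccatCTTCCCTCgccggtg
Rpl22l1 (chr3:28805493-28805522, plus strand): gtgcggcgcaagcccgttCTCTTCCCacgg
Rps2 (chr17:24720048-24720077, plus strand): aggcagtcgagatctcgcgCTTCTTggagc
Rpl4 (chr9:64173372-64173401, plus strand): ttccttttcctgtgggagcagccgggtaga
Rpl7l1 (chr17:46782642-46782671, minus strand): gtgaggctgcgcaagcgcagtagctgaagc
Such a run was found for 36 of the 66 members (54.55%) and for 5910 of 27025 genes with a start site (21.87%). Of the 36 with a run, 12 passed, 2 higher and 10 lower, with a median log2 difference of -0.11. Of the 30 without one, 28 were tested and 6 passed, 2 higher and 4 lower, with a median of 0.01. The shares that passed were below the 45.1% of all genes tested in both sets, and their difference was not tested. Rps27 and Rps27l, which moved in opposite directions, both hold a run, as do Rps2 and Rps15a. The Rps27 run spans the annotated start. The Rps27l run ends before it, so an mRNA beginning at that start would not contain the run. An annotated start can be off by some bases. A window without a marked run says only that none began within 10 bases of the annotated start. In the Rpl4 window, ccttttcct begins farther upstream than the search reached.

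Other mRNAs of the TOP class were mostly higher in SLC43A2 sgRNA. Of 18 genes, 12 rose and 2 fell, with a median log2 difference of 0.50. That is 77.8% called and 66.7% higher, against 45.1% and 22.8% of all genes tested. Of the 16 at 100 TPM or more, 12 passed, where 60.9% of all genes at that level did. The initiation factor gene Eif3l had 216, 161 and 216 TPM in SLC43A2 sgRNA and 82.0, 81.4 and 97.9 TPM in Mock sgRNA (log2 difference 1.16, limma adjusted p = 0.00177). Eif2s3x, the X-linked gene of the same initiation factor subunit as the Y-linked Eif2s3y given above, averaged 79.4 TPM in SLC43A2 sgRNA and 42.2 TPM in Mock sgRNA (log2 difference 0.89, limma adjusted p = 0.00264). Hnrnpa1, a splicing factor, averaged 699.9 TPM in SLC43A2 sgRNA and 394 TPM in Mock sgRNA (log2 difference 0.84, limma adjusted p = 0.00241). Against these, Tpt1, which encodes the translationally controlled tumor protein, had 1947, 2289.7 and 2156 TPM in SLC43A2 sgRNA and 4706, 4477 and 3635 TPM in Mock sgRNA (2.01-fold lower in SLC43A2 sgRNA, limma adjusted p = 0.0013). Eef1a1, which delivers tRNA to the ribosome, averaged 2757 TPM in SLC43A2 sgRNA and 3700.0 TPM in Mock sgRNA (log2 difference -0.43, limma adjusted p = 0.00758), and its adjusted p was 0.0525 without Mock sgRNA replicate 1, 0.0671 with no filter and 0.0826 with T cell receptor scaling, where the difference was -0.25. The call of Eef1a1 held in 15 of 19 other settings, with a limma adjusted p of up to 0.0845 in the rest. Without SLC43A2 sgRNA replicate 1, the list had 9 calls in place of 14.

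Regulators of these mRNAs and of S6 phosphorylation had 5 higher and 1 lower of 17 (median log2 difference 0.32). The 35.3% that passed lie below the 45.1% of all genes, and the 29.4% that were higher lie near the 22.8% of all genes. Eif4ebp1, a translation repressor that mTORC1 inactivates, had 219, 271 and 224 TPM in SLC43A2 sgRNA and 80.2, 80.5 and 88.7 TPM in Mock sgRNA (log2 difference 1.50, limma adjusted p = 0.00026). Its relative Eif4ebp2 averaged 14.2 TPM in SLC43A2 sgRNA and 24.9 TPM in Mock sgRNA (log2 difference -0.75, limma adjusted p = 0.0482), a call that ended without any 1 of the 6 libraries (0.0627 to 0.132), with no filter (0.0983), with T cell receptor scaling (0.131) and with no mean-variance trend (0.0568). Myc, a transcription factor that raises ribosomal protein gene transcription, had 239, 190.0 and 215 TPM in SLC43A2 sgRNA and 90.4, 65.4 and 85.8 TPM in Mock sgRNA (log2 difference 1.41, limma adjusted p = 0.00096). Cnbp, which binds TOP mRNAs, averaged 1327 TPM in SLC43A2 sgRNA and 673 TPM in Mock sgRNA (log2 difference 0.99, limma adjusted p = 0.00259).

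In a list of chaperones and loaders of ribosomal proteins, 9 of 15 genes were higher in SLC43A2 sgRNA and 0 lower (limma, also 0 lower at an unadjusted p under 0.05). The median log2 difference was 0.63. Btf3, called higher, and Nap1l1, not called, are also among the other TOP mRNAs above, so the lists are not independent. Of this list 60.0% passed, all of them higher, against 45.1% of all genes tested that passed and 22.8% that were higher. Grwd1, whose yeast counterpart escorts Rpl3, averaged 51.2 TPM in SLC43A2 sgRNA and 22.0 TPM in Mock sgRNA (log2 difference 1.22, limma adjusted p = 0.013), and this call ended without Mock sgRNA replicate 1 or SLC43A2 sgRNA replicates 1 or 3 (0.0549 to 0.0614). Ltv1, which in yeast holds Rps3 on the maturing small subunit, had 68.3, 53.8 and 64.0 TPM in SLC43A2 sgRNA and 21.6, 27.3 and 34.6 TPM in Mock sgRNA (log2 difference 1.15, limma adjusted p = 0.00419). Bccip, whose yeast counterpart escorts Rpl23, averaged 280.0 TPM in SLC43A2 sgRNA and 135 TPM in Mock sgRNA (log2 difference 1.09, limma adjusted p = 0.00566). Rpl3, Rps3 and Rpl23 had log2 differences of 0.31, 0.09 and -0.48 and did not pass.

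The last list held p53 itself, 5 of its targets (Mdm2, Ccng1, Cdkn1a, Zmat3 and Phlda3) and Huwe1 and Ube2o, ligases that act on unassembled ribosomal proteins. Of the 8 genes, 5 were higher and 1 lower (median log2 difference 1.25), or 75.0% called and 62.5% higher, against 45.1% and 22.8% of all genes tested. The 5 that rose were the p53 targets, which respond to many kinds of stress besides free ribosomal proteins. Mdm2, the p53 ligase that free Rpl5 and Rpl11 inhibit and itself a p53 target, had 102, 66.0 and 106 TPM in SLC43A2 sgRNA and 27.2, 24.1 and 28.0 TPM in Mock sgRNA (log2 difference 1.72, limma adjusted p = 0.00101). The p53 targets Phlda3 (146 ± 25.2 TPM in SLC43A2 sgRNA and 39.0 ± 11.9 TPM in Mock sgRNA; log2 difference 1.91, limma adjusted p = 0.00169) and Ccng1 (251 ± 54.1 TPM in SLC43A2 sgRNA and 77.1 ± 3.59 TPM in Mock sgRNA; log2 difference 1.67, limma adjusted p = 0.00069) rose as well. None of these 3 overlapped between the groups. Huwe1, whose yeast counterpart marks excess ribosomal proteins for degradation, averaged 12.9 TPM in SLC43A2 sgRNA and 22.6 TPM in Mock sgRNA (log2 difference -0.75, limma adjusted p = 0.0204), and the call ended without Mock sgRNA replicates 1 or 3 or SLC43A2 sgRNA replicates 2 or 3 (0.0574 to 0.085). The call of Huwe1 held in 14 of 19 other settings, with a limma adjusted p of up to 0.0955 in the rest. The p53 gene Trp53 had 169, 132 and 165 TPM in SLC43A2 sgRNA and 142, 90.1 and 158 TPM in Mock sgRNA, with overlap and no call (log2 difference 0.29, adjusted p = 0.332).

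**Figure D4:**
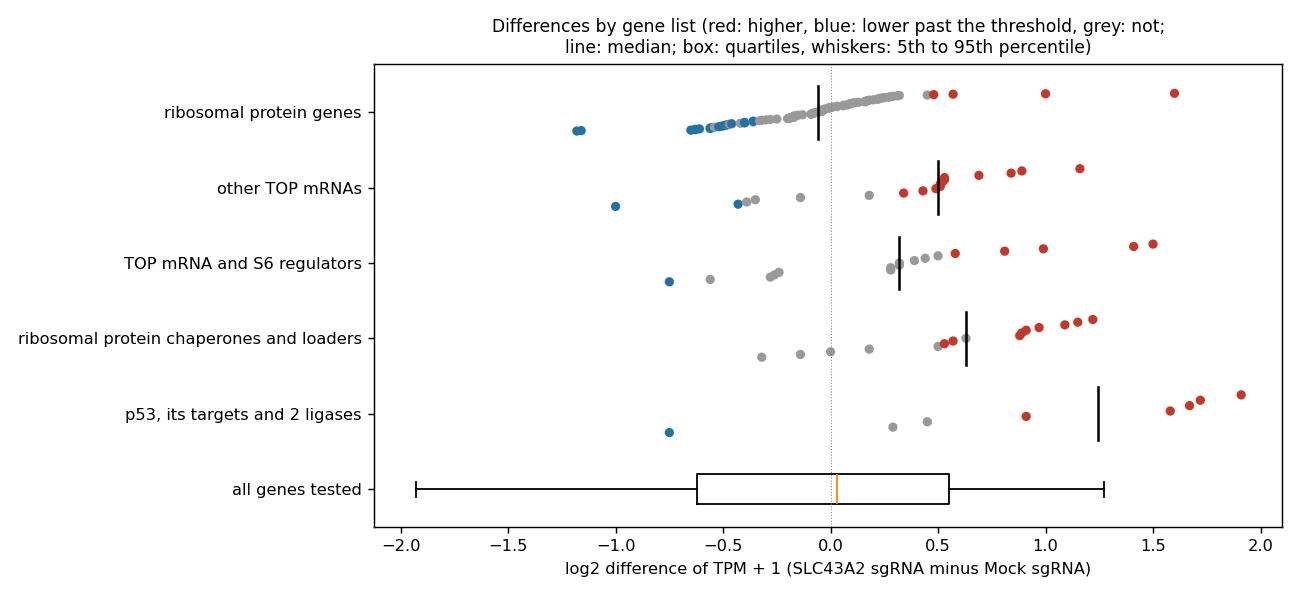
Log2 differences (x axis, SLC43A2 sgRNA minus Mock sgRNA, of TPM + 1) of each gene in 5 lists, with the list median as a line; the box gives the quartiles and the whiskers the 5th and 95th percentiles of all genes tested. The ribosomal protein genes center on -0.06, while the medians of the other 4 lists lie between 0.32 and 1.25.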

How the data were processed

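RNA was sequenced from 3 SLC43A2 sgRNA and 3 Mock sgRNA libraries, prepared per the labels' protocols with Illumina's TruSeq RNA kit (1 ug of total RNA, no strand mark). The protocol text names retinas; the other labels name tumor and lymphocytes. The authors deposited gene-level TPM to 2 decimals. The submitters' processing notes name Bowtie 0.12.2 and mm8 without a role, and no counting tool. GENCODE M21 (GRCm38) holds 51884 (90.7%) of the gene IDs, so the build is uncertain; coordinates are GENCODE's. Read depth and counting error cannot be had from TPM. limma 3.58.1 (R 4.3.3; lmFit, eBayes with trend, two-sided) was run on log2(TPM + 1), which understates changes of low genes, for the 13759 genes with a mean of at least 1 TPM, with Benjamini-Hochberg adjustment and a threshold of 0.05. Folds are ratios of mean TPM. Shared windows of 50 bases were counted over GENCODE M21 transcripts. Members and lists were chosen with earlier results of these data known. The naming rule took the 8 largest differences each way, the 4 most abundant members, paralogs, stalk and 5S proteins, and up to 3 rises and 3 falls of each other list; other called members, parents of paralogs, Rpl30 and Trp53 were named after their values were seen. A few genes under this rule are not reported here. Alternatives were other pseudocounts (0.1, 0.5), filters, scalings, variance models, array weights, removal of length and GC trends, a block on the replicate number, and fits without single libraries. Scaling to the ribosomal protein genes and the regrouped Rps27 values were chosen after seeing the data.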

Additional observations from a re-analysis of the deposited data

How the results depend on the processing

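The count of 22 ribosomal protein genes past the threshold (4 higher, 18 lower) was 8 with no filter, 9 with median-of-ratios scaling, 39 when rescaled to protein-coding genes, 14 with no mean-variance trend, 34 with array weights and 9 to 35 when leaving out each library. Higher members numbered 8 with quantile normalization, 12 with T cell receptor scaling, 9 with array weights, 8 with length and GC trends removed, 10 when scaled to the ribosomal protein genes (added after seeing the data), 2 without paralogs and retrocopies, and 4 to 6 when leaving out a library. Lower members numbered 5 with no filter, 4 with median-of-ratios scaling, 36 when rescaled, 5 with T cell receptor scaling, 10 with no trend, 7 with length and GC trends removed and 5 to 30 when leaving out a library. Of the members' calls, 18.2% were higher, against 40.0% without Mock sgRNA replicate 2, 44.4% without each of Mock sgRNA replicate 1 and SLC43A2 sgRNA replicates 1 and 3, and 37.5% with no filter. Over all genes the same shares were 50.6% in the main fit, 44.7%, 44.5 to 48.4%, and 44.4%. The median of all genes moved by 0.15 with T cell receptor scaling, 0.11 with quantile normalization and 0.16 at a 5 TPM filter. All genes past the threshold numbered 4101 to 5904 when leaving out a library, against 6199. Other TOP mRNAs numbered 9 to 13 when leaving out a library and 9 when scaled to the ribosomal protein genes, against 14. The regulators numbered 12 with quantile normalization and 12 with length and GC trends removed, against 6. Signs turned, without a call, for Rps29 (0.04, length and GC), Rps4l (-0.02 without Mock sgRNA replicate 2, up to 0.37 without another library), Rpl12 (0.11 with T cell receptor scaling, 0.03 when scaled to the ribosomal protein genes, -0.17 to 0.05 when leaving out a library), Rplp0 (-0.03, rescaled) and Rpl11 (-0.07 quantile, -0.11 rescaled, -0.05 to 0.22 when leaving out a library). Rps3, Rps26, Rps28, Rpl7, Rpl22 and Rpl35 also changed sign in at least 1 setting, as did members not named. The causes were not tested. Same-numbered libraries of the 2 groups did not deviate together (correlations 0.001, 0.061 and -0.031). With 3 libraries in each group this gives no sign of pairing but cannot exclude it, and the labels state none. With a replicate block 4 members were higher and 15 lower, and over all genes 3319 and 3038.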
